A study of Mus musculus with 6 samples.

Results

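The NMDA receptor subunits were examined by the RNA of 6 genes, Grin1, Grin2a, Grin2b, Grin2c, Grin2d and Grin3a, taken by name from a table of 56748 genes, and all 6 had enough counts to be among the 16859 genes tested. RNA had been sequenced from whole cerebella of 6 adult C57BL/6J mice, each 90 to 120 days old. In the MeHg group (n = 3) the dams drank water with 0.2 ppm methylmercury, an organic mercury compound toxic to neurons, from conception until birth, and in the Control group (n = 3) the water held 0 ppm. Dosing was through the dam and ended at birth, and the labels give no dam or litter. The p-values therefore measure the spread between these 6 samples, which may include litter mates.

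NMDA receptors are glutamate-gated cation channels that pass calcium and open only when glutamate and a co-agonist, glycine or D-serine, are both bound. Each receptor holds GluN1 subunits, encoded by Grin1, together with GluN2 subunits, encoded by Grin2a to Grin2d, or GluN3 subunits, encoded by Grin3a and Grin3b. In the cerebellum, young granule cells, the small excitatory neurons that make up most of its cells, carry GluN2B, and mature granule cells replace it with GluN2A and GluN2C. GluN2D is a subunit of the brainstem, the diencephalon and some inhibitory neurons.

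Total counts ran from 14116088 to 20303833 per library. Control replicate 1 and MeHg replicates 1 and 3 are labelled female, and control replicate 3 and MeHg replicate 2 male, each with RNA of that sex. Control replicate 2 is labelled female, but it had the male pattern of sex-linked RNA (Xist at 0.249 CPM, counts relative to a scaled library size, and Ddx3y at 87.2 CPM). By RNA the sexes were thus unequal between the groups. The 4 libraries labelled female, used below, include control replicate 2, as does labelled sex used as a term. MeHg replicate 2 stood apart by RNA of neurons that the cerebellum lacks: Tph2, which makes serotonin in the raphe nuclei of the brainstem, reached 67.5 CPM in this library, against at most 1.48 CPM elsewhere. RNA of the labelled tissue was present, with the granule cell genes Gabra6 (435 to 797 CPM) and Fat2 (549.6 to 880.5 CPM) and the Purkinje cell gene Pcp2 (202 to 317 CPM) in every library.

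The RefSeq promoter table (build GRCm38.p6) held 3 of the 6 genes, Grin1, Grin2c and Grin2d. The 250 bases before each RefSeq start site are shown for these genes because they were available. They are also the 3 genes whose MeHg and control libraries did not overlap. Capitals mark the letters of a GC box (GGGCGG or CCGCCC) or an E box (CACGTG), and the ETS core CCGGAA or TTCCGG was searched on both strands too.
Grin2c, chr11:115267244-115267493, minus strand: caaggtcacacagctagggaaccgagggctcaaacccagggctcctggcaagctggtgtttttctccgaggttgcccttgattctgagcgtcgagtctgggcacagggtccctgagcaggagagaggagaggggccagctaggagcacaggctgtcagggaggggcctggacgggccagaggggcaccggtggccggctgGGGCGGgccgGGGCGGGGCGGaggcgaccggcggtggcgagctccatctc
Grin1, chr2:25319188-25319437, minus strand: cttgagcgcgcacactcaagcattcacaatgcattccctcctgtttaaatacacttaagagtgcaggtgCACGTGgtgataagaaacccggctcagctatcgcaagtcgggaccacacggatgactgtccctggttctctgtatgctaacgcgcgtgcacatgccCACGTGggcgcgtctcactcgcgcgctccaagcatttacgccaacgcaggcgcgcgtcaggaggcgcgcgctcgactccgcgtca
Grin2d, chr7:45866682-45866931, minus strand: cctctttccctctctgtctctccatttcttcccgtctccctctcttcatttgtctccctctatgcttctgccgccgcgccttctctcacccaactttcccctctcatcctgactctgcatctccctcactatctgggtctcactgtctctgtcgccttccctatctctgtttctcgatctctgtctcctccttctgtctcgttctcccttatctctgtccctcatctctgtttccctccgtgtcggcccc
The Grin2c window held 3 GC boxes and 68.8% G and C. The Grin1 window held 2 E boxes and 58.8% G and C. No letters of the 3 motifs were in the Grin2d window, a run rich in C and T with 54.4% G and C. Over the 32851 windows of this length in the table, 32.7% held a GC box, 6.02% an E box and 12% an ETS core, and the median share of G and C was 52.4%. The data hold no measurement at these sequences.

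The subunit RNAs were of very unequal abundance. On the deposited FPKM scale, which divides counts by gene length and library total, Grin2c had the highest level with 93.2 ± 5.59 (SD, n = 3) in controls and 74.0 ± 4.74 in MeHg. Grin1, whose product every NMDA receptor needs, followed with 33.3 ± 1.5 FPKM in controls and 28.7 ± 3.31 in MeHg. On this FPKM scale Grin2c lay above Grin1 in each library, and Grin1 above the rest.

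The next 3 genes lay close together in FPKM. Their ranges overlapped in MeHg, but in controls every Grin2a value was above all those of Grin3a and Grin2d. In controls Grin2a was at 4.25 ± 0.608 FPKM, Grin3a at 3.25 ± 0.260 and Grin2d at 3.14 ± 0.315, and in MeHg Grin2d was at 4.24 ± 0.851, Grin2a at 3.68 ± 0.332 and Grin3a at 3.23 ± 0.644. Neighbours in that order differed by less than their summed SDs, except for Grin2a over Grin3a in controls. Grin2b was lower, at 1.30 ± 0.188 FPKM in controls and 1.56 ± 0.343 in MeHg. Grin3b, the other GluN3 gene, was at 0.396 ± 0.195 and 0.515 ± 0.115 FPKM, from 11 to 42 counts per library. The gap between Grin2c and Grin1 depends on the length used. The deposited length of Grin1 is 9700 bases and its canonical transcript in the GENCODE annotation has 4318, and with canonical lengths the mean over the 6 libraries was 83.9 RPKM (CPM divided by length in kilobases) for Grin2c and 74.4 for Grin1. Grin2c over Grin1 was then 1.15 to 1.19 in controls and 1.07, 0.98 and 1.20 in MeHg, so that the order of the pair turned in MeHg replicate 2. Grin3a then followed with 5.52 RPKM, before Grin2a (5.11) and Grin2d (4.83).

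**Figure D1:**
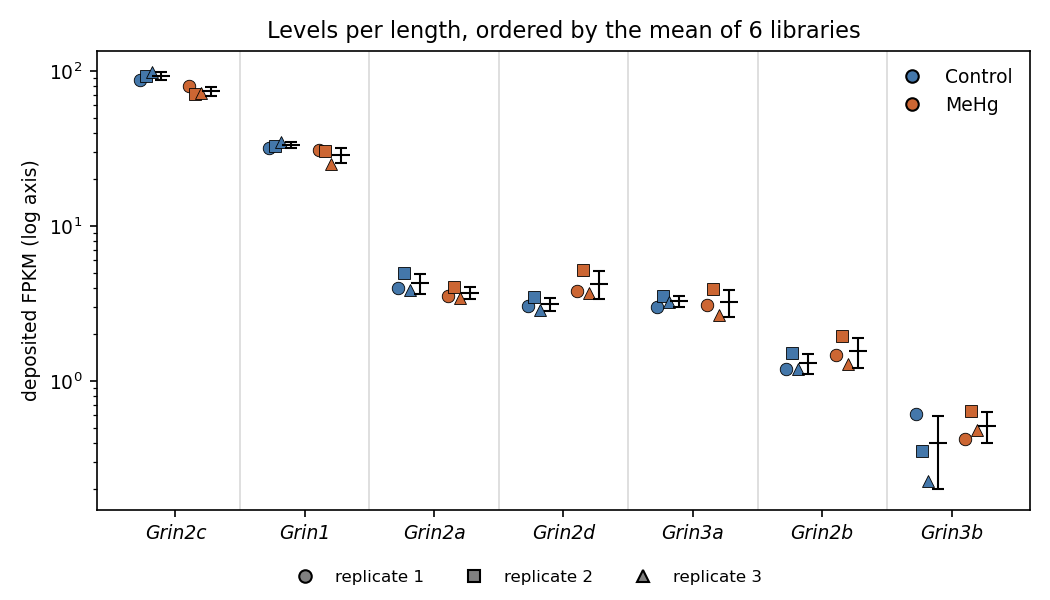
Deposited FPKM of the 6 subunit genes and Grin3b on a log axis, ordered by the mean over 6 libraries, with 1 point per library (shape gives the replicate number) and the mean ± SD of each group of 3 beside the points. Grin2c and Grin1 sit above all others in each library, and Grin2b and Grin3b lie lowest. Grin2a, Grin2d and Grin3a overlap in MeHg, and in controls Grin2a lies above Grin2d and Grin3a.

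Between MeHg and Control, 0 of the 6 subunit genes passed the test across all genes (edgeR quasi-likelihood test, adjusted p under 0.05), against 2.36% of all tested genes (0.575% higher and 1.79% lower). DESeq2 called 1, Grin2c, and limma-voom 0. At an unadjusted p under 0.05 edgeR gave 2, Grin2c lower and Grin2d higher, against 24.5% of all tested genes (12.7% lower and 11.8% higher). Grin2c and Grin1 were below every control in all 3 MeHg libraries, Grin2d was higher in all 3, and Grin2a, Grin2b and Grin3a overlapped. Groups did not overlap for 29.4% of all tested genes (15.5% with MeHg lower and 13.9% with MeHg higher), so 3 of 6 is a share not far from that of the whole table. The 6 genes had a median log2 fold change of -0.10, and all tested genes one of 0.01.

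Grin2c (chromosome 11, 115139995 to 115158069 on the minus strand, mm39) encodes GluN2C, the subunit of mature granule cells that gives channels of low conductance and weak magnesium block. It was at 470.2, 498 and 531 CPM in control replicates 1, 2 and 3 and at 427, 386 and 384 CPM in MeHg replicates 1, 2 and 3. The lowest control lay above the highest MeHg library. The means were 499.6 ± 30.3 CPM and 399 ± 24.7 CPM, a log2 fold change of -0.32 ± 0.08 (SE) with an adjusted p of 0.0560 by edgeR, just outside the threshold. It ranked 586th of 16859 genes by p. DESeq2 called it at an adjusted p of 0.00246 with nearly the same fold (-0.32), as did edgeR without a filter on low counts (adjusted p = 0.00253), and the adjusted p over all 19 alternatives ran from 0.00246 to 0.243. The log2 fold change was between -0.38 and -0.26 in all 19.

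Of 14 granule cell markers 7 were called lower and 0 higher by edgeR, against 1.79% of all tested genes called lower, and their median log2 fold change was -0.39. These calls did not stand without control replicate 1, control replicate 3, MeHg replicate 1 or MeHg replicate 3, nor with an offset for gene length, when 0 genes of the whole table were called lower. Gabra6, a GABA receptor subunit of granule cells, was at 738 ± 55.6 CPM in controls and 495 ± 61.6 CPM in MeHg (-0.58 ± 0.10, adjusted p = 0.0431), and the granule cell protocadherin gene Fat2 at 844 ± 53.6 and 585 ± 41.6 CPM (-0.53 ± 0.08, adjusted p = 0.0431). Taken relative to the mean log2 CPM of the granule cell markers, Grin2c was at -0.04 ± 0.14 (SD) in controls and -0.01 ± 0.05 in MeHg, and the groups overlapped. In whole tissue, fewer granule cells, less RNA per granule cell and more RNA from other cells or tissue cannot be told apart. The summed level of the granule cell markers was 8432 to 9069 CPM in controls and 6404 to 7301 CPM in MeHg.

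Markers of other cells of the cerebellum were read in the same way. Over all tested genes 51.07% had a positive log2 fold change, and edgeR called 0.575% higher and 1.79% lower. Of 14 Purkinje cell markers 11 had a negative log2 fold change and 0 were called by edgeR or limma-voom (3 by DESeq2, and 6 at an unadjusted p under 0.05 by edgeR), with sums of 9204 to 10190 CPM in controls and 7031 to 9129 CPM in MeHg. Of 7 unipolar brush cell markers 2 were called lower, and the sums were 1275 to 1549 CPM and 1060 to 1203 CPM. Positive log2 fold changes were found for 11 of 11 oligodendrocyte markers (0 called by edgeR or limma-voom, 4 by DESeq2, and 8 at an unadjusted p under 0.05 by edgeR), 9 of 9 microglia markers (0 called by edgeR, DESeq2 or limma-voom, and 3 at an unadjusted p under 0.05 by edgeR), 9 of 9 endothelial markers (1 called) and 9 of 9 ependymal markers (2 called). Of 11 astrocyte and Bergmann glia markers 5 had a positive and 6 a negative log2 fold change. Of these 0 were called by edgeR or limma-voom (2 by DESeq2, and 5 at an unadjusted p under 0.05 by edgeR). Their sums overlapped between the groups. Of 7 oligodendrocyte precursor markers 6 were positive and 0 were called by edgeR, DESeq2 or limma-voom. At an unadjusted p under 0.05 edgeR gave 2 of them. The part of all these cells in the subunit values was not tested.

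Grin1 (chromosome 2, 25181193 to 25209199 on the minus strand) was at 329.7, 340.4 and 360.4 CPM in the controls and at 321, 317 and 258 CPM in MeHg. All MeHg libraries were lower, but replicates 1 and 2 only by a little, and replicate 3 stood below the rest. The means of 343 ± 15.6 and 299 ± 35.6 CPM gave a log2 fold change of -0.20 ± 0.09, which did not pass (adjusted p = 0.214). Without MeHg replicate 3 it was -0.10 (adjusted p = 0.481), and with an offset for gene length -0.10 (adjusted p = 0.484). The sources used here do not say whether counting used the strand, and the antisense gene Grin1os (chromosome 2, 25181232 to 25188937 on the plus strand) shares 1307 exonic bases with Grin1, 45.2% of its own. Grin1os was at 19.99, 16.3 and 25.9 CPM in controls and 13.9, 13.9 and 11.3 CPM in MeHg, a log2 fold change of -0.66 ± 0.17 (adjusted p = 0.0733). It was called by DESeq2 (adjusted p = 0.0111), by edgeR without a filter on low counts (0.000467), without both libraries numbered 2 (0.0151) and with labelled sex as a term (0.0487), and its adjusted p over the 19 alternatives ran up to 0.261. Reads of Grin1 and Grin1os may not be separated in these counts, so both values are uncertain. Other members share exonic bases with other genes too. Grin2d shares 643 of its 7860 with an antisense gene, and Grin3a 411 of 13142. Grin2b shares 499 of its 25460 with a gene on its own strand and fewer with antisense genes. The part of such reads in the values was not tested.

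Grin2a (chromosome 16, 9385762 to 9813424 on the minus strand), which encodes the GluN2A subunit widespread in adult brain, was at 75.6, 94.8 and 73.3 CPM in controls and at 67.9, 78.7 and 65.8 CPM in MeHg. The libraries numbered 2 were the highest of each group, and MeHg replicate 2 lay above 2 of the controls. Its log2 fold change of -0.20 ± 0.11 did not pass (adjusted p = 0.301). Without control replicate 2 it was -0.07 (adjusted p = 0.665), and in the 4 libraries labelled female -0.35 (adjusted p = 0.14). With an offset for gene length it was -0.01 (adjusted p = 0.956).

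Grin2d (chromosome 7, 45481307 to 45527802 on the minus strand) encodes GluN2D, which forms channels that close slowly. It was at 21.5, 24.8 and 20.4 CPM in controls and at 27.0, 37.6 and 26.3 CPM in MeHg, from 284 to 574 counts per library. All 3 MeHg libraries lay above the highest control, MeHg replicate 2 by the widest margin. The means of 22.2 ± 2.28 and 30.3 ± 6.32 CPM gave a log2 fold change of 0.44 ± 0.15, with an adjusted p of 0.122. Without MeHg replicate 2 the log2 fold change was 0.27 ± 0.11 (adjusted p = 0.179), and without both libraries numbered 2 it was 0.35 ± 0.11 (adjusted p = 0.0673). In the 4 libraries labelled female it was 0.20 ± 0.12 (adjusted p = 0.432). It was called by edgeR without a filter on low counts (adjusted p = 0.0107) and not by DESeq2 (adjusted p = 0.0543).

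Grin2b (chromosome 6, 135690231 to 136150509 on the minus strand), the gene of the early subunit GluN2B, was at 31.3, 40.2 and 31.5 CPM in controls and at 38.8, 52.1 and 33.8 CPM in MeHg. Control replicate 2 lay above MeHg replicates 1 and 3, so the groups overlapped. Its log2 fold change of 0.28 ± 0.16 did not pass (adjusted p = 0.335). Without MeHg replicate 2 it was 0.09 ± 0.12 (adjusted p = 0.713), and in the 4 libraries labelled female 0.02 ± 0.14 (adjusted p = 0.957). With an offset for gene length it was 0.50 ± 0.15 (adjusted p = 0.12).

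Grin3a (chromosome 4, 49661611 to 49845744 on the minus strand) encodes a glycine-binding subunit that lowers calcium passage. It was at 39.2, 46.1 and 42.3 CPM in controls and at 40.6, 52.1 and 34.9 CPM in MeHg. The MeHg libraries lay on both sides of the controls, with means of 42.5 ± 3.50 and 42.5 ± 8.81 CPM. The SE of its log2 fold change was 0.14, near that of Grin2d (0.15), so the close means do not show that the groups are alike. Grin3b was at 1.39 ± 0.681 CPM in controls and 1.82 ± 0.419 CPM in MeHg, with a log2 fold change of 0.36 ± 0.38 (adjusted p = 0.601).

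**Figure D2:**
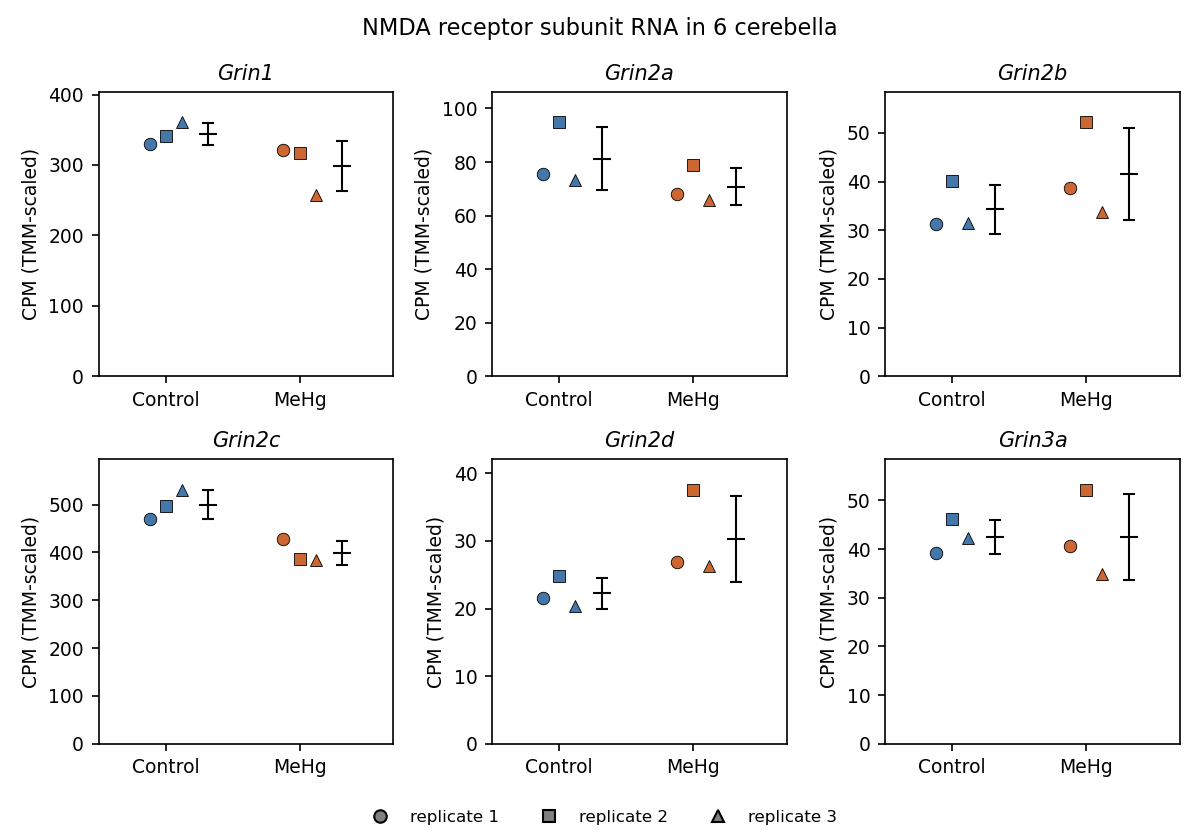
CPM of the 6 subunit genes, scaled by TMM, with 1 point per library (shape gives the replicate number) and the mean ± SD of each group of 3 beside the points; each axis starts at 0. Grin2c and Grin1 are lower in all MeHg libraries, Grin2d is higher in all, and MeHg replicate 2 is the highest library for Grin2b, Grin2d and Grin3a.

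RNA of brainstem and midbrain markers was highest in the library where Grin2d and Grin2b were highest, MeHg replicate 2. Of 12 brainstem and midbrain markers 5 had enough counts to be tested, all 5 had a positive log2 fold change (median 2.06), and 0 were called by edgeR, DESeq2 or limma-voom (3, 1 and 1 at an unadjusted p under 0.05, DESeq2 giving a p for 4 of the 5). The summed level of all 12 was 31.7, 74.5 and 44.3 CPM in the controls and 61.8, 321 and 70.9 CPM in MeHg. These values follow the order of the replicate numbers. MeHg replicate 2, the highest library for these markers, was also the highest for Grin2b (52.1 CPM), Grin2d (37.6 CPM) and Grin3a (52.1 CPM), and control replicate 2, the highest control, was also the highest control for these genes. Slc17a6, the vesicular glutamate transporter of many neurons of the brainstem and the cerebellar nuclei, was at 19.2, 55.9 and 33.2 CPM in controls and 49.9, 103 and 48.4 CPM in MeHg. Of the 12 markers Slc17a6 had the highest level in every library. In MeHg replicates 1 and 3 Grin2d was above control replicate 2 and Slc17a6 was below it. In MeHg replicate 1 Slc5a7 (0.618 CPM), the choline transporter of cholinergic neurons, and Slc6a2 (0.247 CPM), the noradrenaline transporter, were below all controls. Tph2 (0.556 CPM) lay within the range of the controls there. In MeHg replicate 3 Slc5a7 (2.09 CPM), Slc6a2 (6.67 CPM) and Tph2 (1.48 CPM) were above all controls. The part of such tissue in the Grin2b and Grin2d values was not tested.

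Inhibitory interneurons, among which GluN2D is also known, were read from 14 markers. Of these 0 were called by edgeR, DESeq2 or limma-voom (2 at an unadjusted p under 0.05 by each), the median log2 fold change was 0.00 and their summed level was 2212 to 2264 CPM in controls and 2100 to 2313 CPM in MeHg. Gad1, the GABA synthesis enzyme, was at 618 ± 4.79 and 608 ± 32.0 CPM (log2 fold change -0.02 ± 0.07, adjusted p = 0.868). The 12 choroid plexus markers, not neuronal, varied most between libraries, with sums of 147 to 3141 CPM in controls and 2591 to 10310 CPM in MeHg and 0 called by edgeR, DESeq2 or limma-voom (8, 0 and 11 at an unadjusted p under 0.05). Ttr, the thyroxine carrier of that tissue, was at 702 ± 918 CPM and 3462 ± 2588 CPM.

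**Figure D3:**
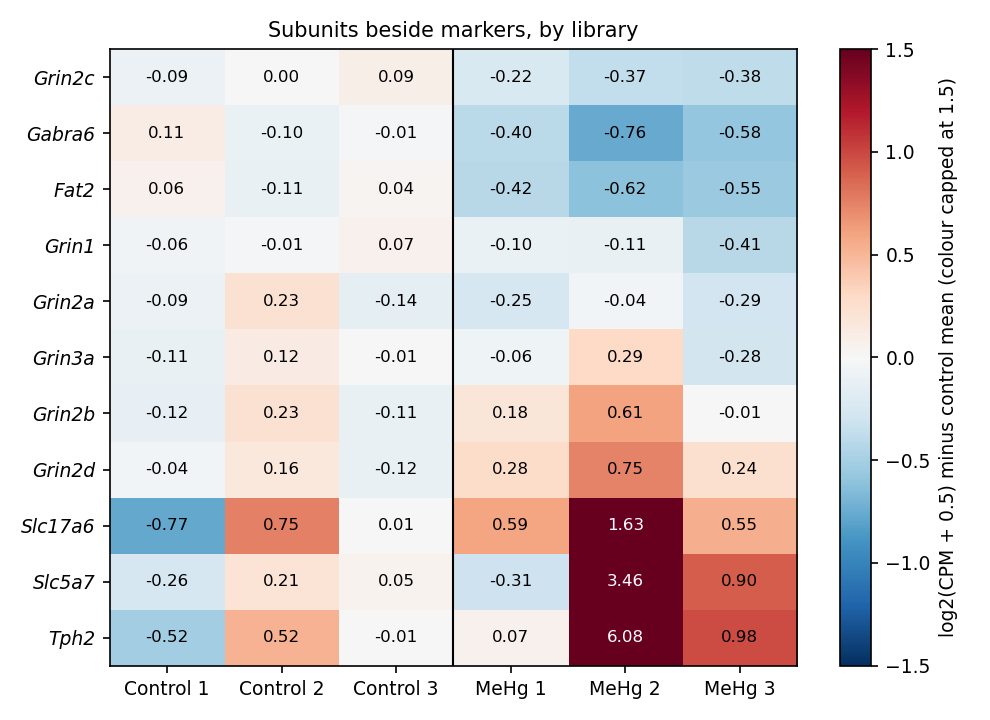
Differences of log2(CPM + 0.5) from the control mean in each of the 6 libraries for the 6 subunit genes, the granule cell genes Gabra6 and Fat2 and the brainstem and midbrain genes Slc17a6, Slc5a7 and Tph2; the colour is capped at 1.5 and the number in each cell is the value. Grin2c is negative in all MeHg libraries together with Gabra6 and Fat2, and Grin2b and Grin2d are highest in MeHg replicate 2, as are Slc17a6, Slc5a7 and Tph2.

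The make-up of the GluN2 pool was described as the share of each gene in the summed FPKM of Grin2a to Grin2d, which needs no scaling between libraries. Grin2c held 91.5, 90.3 and 92.6% in the controls and 90.03, 86.3 and 89.5% in MeHg, with means of 91.5 ± 1.15% and 88.6 ± 1.99%. The MeHg shares lay below the controls, but MeHg replicate 1 only just. Grin2d held 3.17, 3.40 and 2.69% in controls and 4.30, 6.36 and 4.64% in MeHg, and Grin2b 1.23, 1.48 and 1.11% in controls and 1.66, 2.37 and 1.60% in MeHg. For both, every MeHg share exceeded the highest control share, also without MeHg replicate 2. The Grin2a share overlapped, with 4.18 ± 0.620% and 4.42 ± 0.476%. These shares were chosen with the results known and were not tested, and 3 against 3 libraries cannot give a two-sided exact permutation p below 0.1.

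Of the ratios within a library, those of Grin2b to Grin2a and of Grin2d to Grin2c set the groups apart. Grin2b over Grin2a, the pair of the early and the mature subunit, was 0.299, 0.306 and 0.310 in controls, a narrow range, and 0.412, 0.478 and 0.371 in MeHg. All MeHg ratios were higher, although neither Grin2b nor Grin2a passed on its own. Grin2d over Grin2c was 0.0346, 0.0377 and 0.0291 in controls and 0.0477, 0.0737 and 0.0518 in MeHg. The ratios were not tested. Grin2c over Grin2a overlapped, at 22.2 ± 3.54 in controls and 20.2 ± 2.53 in MeHg, and so did the summed GluN2 genes over Grin1, at 3.06 ± 0.0582 and 2.92 ± 0.256. With canonical transcript lengths the Grin2c share was 89.5 ± 1.39% and 86.1 ± 2.35%, and the groups again did not overlap. Grin2b over Grin2a was then 0.259 ± 0.00475 and 0.357 ± 0.0459.

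**Figure D4:**
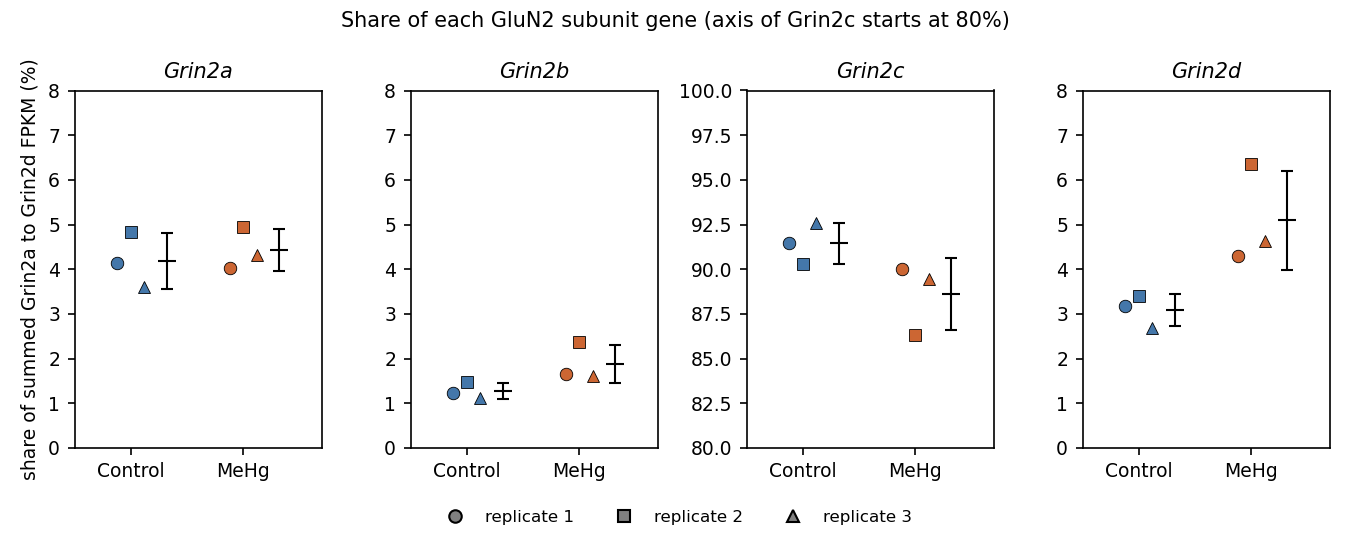
Share of Grin2a, Grin2b, Grin2c and Grin2d in their summed FPKM, in percent, with 1 point per library and the mean ± SD of each group of 3; the axis of Grin2c runs from 80 to 100% and the others from 0 to 8%. The Grin2c share is lower and the Grin2b and Grin2d shares are higher in all MeHg libraries, and MeHg replicate 2 lies farthest from the controls for all 3.

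Across the 6 libraries the subunit genes fell into no single pattern. Pearson's r of log2 CPM was 0.93 between Grin2b and Grin2d, 0.81 between Grin1 and Grin2c and -0.78 between Grin2c and Grin2d, as a description over 6 libraries that share their group difference. The genes most like Grin2c, of 10239 with at least 10 CPM on average, were Map4k5, Zbtb46 and Atf7, with r of 0.997, 0.996 and 0.996. Those most like Grin2d were Nrsn2 (r = 0.995), Eri3 (0.994) and Chst1 (0.994), and those most like Grin2b were Gpc1 (0.99), Nemp2 (0.987) and Btbd11 (0.987). Grin1 was most like Tbkbp1 (0.995), Zfp846 (0.985) and Polg (0.981), Grin2a most like Pcnp (0.998), Lrrc8b (0.984) and Sema4c (0.983), and Grin3a most like Nrip3 (0.998), Tom1l2 (0.99) and Rab3gap1 (0.99). These genes were picked for the highest r, and no test was made of it.

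Genes around the receptor were read from 6 lists with 84 genes, all of which were tested. Of these edgeR called 7 lower and 0 higher, 8.33% against 2.36% of all tested genes, and their median log2 fold change was -0.04. The calls did not stand without control replicate 1, control replicate 3, MeHg replicate 1 or MeHg replicate 3, when 0 of the 84 passed, nor with an offset for gene length (0). With that offset Lin7a (-0.80, adjusted p = 0.0749) and Camk4 (-0.66, adjusted p = 0.0749) had folds as large as before, and those of the other 5 were smaller. Genes of these lists were called higher too under some settings: 7 higher and 11 lower without a filter on low counts, 4 and 9 without both libraries numbered 2, 2 and 7 with replicate number as a block, and 1 and 9 with DESeq2. The 7 genes called by edgeR had all 3 MeHg libraries below all 3 controls, as did 15.5% of all tested genes. Genes picked by a small p in these same libraries mostly do so, and this adds no support to the calls.

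Among 16 postsynaptic scaffolds, which tie the receptor to the synapse, 1 was called. Dlg2, which encodes PSD-93, a scaffold that binds the tails of GluN2 subunits, was at 408, 377 and 419 CPM in controls and 317, 319 and 283 CPM in MeHg (-0.39 ± 0.07, adjusted p = 0.0433). With an offset for gene length its log2 fold change was -0.20 (adjusted p = 0.12). Its paralogue Dlg4, which encodes PSD-95, was at 404 CPM in controls and 429 CPM in MeHg on average (0.09 ± 0.06, adjusted p = 0.424). Of 11 genes of receptor traffic 1 was called: Lin7a, of the scaffold that carries GluN2B vesicles along microtubules, was at 134, 112 and 122 CPM in controls and 79.9, 80.6 and 56.2 CPM in MeHg (-0.76 ± 0.13, adjusted p = 0.0431). Its paralogues Lin7b (0.52 ± 0.21) and Lin7c (-0.16 ± 0.09) did not pass.

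Of 15 kinases and phosphatases that act on the receptor 1 was called. Camk2d, an isoform of the calcium/calmodulin kinase II that NMDA receptor calcium activates, was at 268, 272 and 267 CPM in controls and 211, 213 and 205 CPM in MeHg (-0.36 ± 0.05, adjusted p = 0.0431). With an offset for gene length it was -0.13 (adjusted p = 0.216). The main neuronal isoforms Camk2a (0.28 ± 0.11, adjusted p = 0.172) and Camk2b (-0.09 ± 0.07, adjusted p = 0.449) did not pass.

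Downstream effectors held 3 of the 7 calls among 12 genes. Tiam1, a Rac activator bound to the receptor, was at 358, 327 and 331 CPM in controls and 273, 244 and 244 CPM in MeHg (-0.42 ± 0.07, adjusted p = 0.0431). Camk4, a calcium-dependent kinase of the granule cell nucleus, was at 174 CPM and 113 CPM on average (-0.62 ± 0.10, adjusted p = 0.0431), and Creb1, the transcription factor it phosphorylates, at 97.8 and 76.9 CPM (-0.35 ± 0.07, adjusted p = 0.0433). The nitric oxide synthase gene Nos1, tied to the receptor by PSD-95, was at -0.17 ± 0.08 (adjusted p = 0.236).

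Of 16 genes for the supply and removal of glycine and D-serine 0 were called by edgeR, DESeq2 or limma-voom, with 5 at an unadjusted p under 0.05 by each (by edgeR 4 higher and 1 lower). Psat1, an enzyme of serine synthesis, had the smallest p and was at 109 CPM in controls and 126 CPM in MeHg on average (0.21 ± 0.05, adjusted p = 0.0645). Without MeHg replicate 2 it was called (0.24, adjusted p = 0.0398). Srr, the enzyme that makes D-serine, was at 28.2 and 22.9 CPM (-0.30 ± 0.10, adjusted p = 0.123). Of 14 regulators of the switch from early to mature subunits 1 was called. It was Etv1, a transcription factor of maturing granule cells that is also on the marker list of these cells, at 470.5, 444 and 467 CPM in controls and 363, 305 and 321 CPM in MeHg (-0.48 ± 0.08, adjusted p = 0.0431). Rest, a repressor of neuronal genes, was at 6.79 and 8.13 CPM (0.26 ± 0.18, adjusted p = 0.423), and Bdnf, a neurotrophin, at 22.1 and 17.7 CPM (-0.32 ± 0.26, adjusted p = 0.494).

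**Figure D5:**
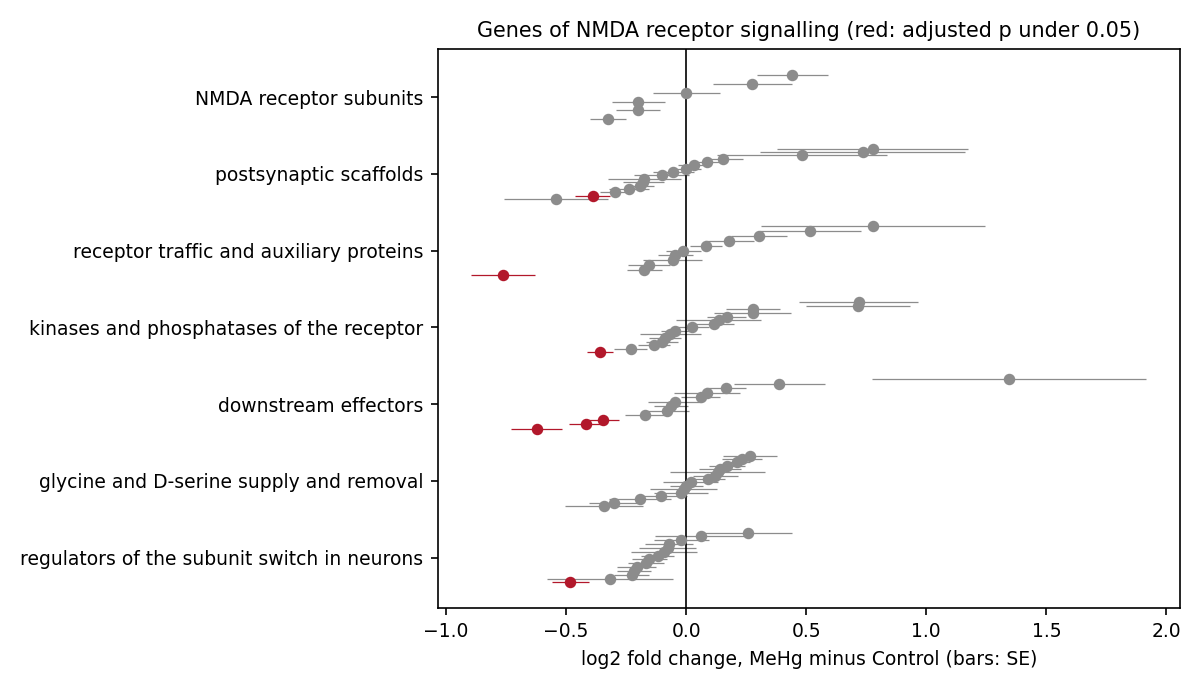
Log2 fold change (MeHg minus Control) with its SE for the 6 subunit genes and the 84 genes of 6 lists around the receptor; red points had an adjusted p under 0.05. The 7 called genes are all negative and spread over 5 of the lists, and 0 subunit genes are among them.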

How the data were processed

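The deposited gene table holds raw counts in whole numbers, made by the authors. The build mm39 and the tool DESeq2 are named in the submitters' processing notes; the aligner, the counter, the annotation and the use of strand were not given in the sources used here. FPKM values, also deposited, equal the authors' counts divided by gene length and by a library total that exceeds the summed counts 1.04 to 1.05 times in controls and 1.08 to 1.09 times in MeHg. Genes were filtered with filterByExpr, scaled by TMM and fitted with edgeR 4.0.16 (R 4.3.3, quasi-likelihood test) on group alone over all 6 libraries, with Benjamini-Hochberg adjustment over 16859 genes. The SE is the log2 fold change over the square root of F. Alternatives used DESeq2 1.42.0 and limma 3.58.1. The members, lists and tests were chosen with earlier results of these data known. Genes named are the members, Grin3b, all called genes of each list or its smallest p, 8 cell type markers fixed by name (1 of them not reported here), and the 3 genes most correlated with each member; Grin1os, Ddx3y, Xist, Slc5a7, Slc6a2, Dlg4, Lin7b, Lin7c, Camk2a, Camk2b, Nos1, Srr, Rest and Bdnf were added after their values were seen. On counts simulated for this comparison (16621 genes), the test called 2 of 49 genes planted at a log2 fold change of 0.3, 13 of 50 at 0.5, 33 of 49 at 1 and 46 of 50 at 2, and 10 of 16423 unchanged genes. The smallest count of a member in a library was 284, a counting error of 5.93%. No libraries of a group were copies (chi-square per degree of freedom 7.77 to 19.7).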

Additional observations from a re-analysis of the deposited data

How the results depend on the processing

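Grin1, Grin2a and Grin2c stayed negative and Grin2b and Grin2d positive under all 19 alternatives tried for the fold changes. The count of subunit genes called, 0, became 2 (Grin2c and Grin2d) without a filter on low counts and 1 (Grin2c) with DESeq2, and was 0 otherwise. Grin3a, near 0, had the opposite sign with DESeq2 size factors (0.0020), upper-quartile scaling (0.036), a minimum of 1 CPM (0.0054), DESeq2 (0.0020) and a length offset (0.13), and ran from -0.16 to 0.13 when 1 library was left out. Grin3b was -0.094 in the libraries labelled female, which include control replicate 2, male by its RNA. Of the 84 listed genes, 7 called became 18 without a filter, 13 without both libraries numbered 2, 3 in the libraries labelled female, and 0 with a length offset or limma on log2 FPKM with 1 or 0.1 added; leaving out 1 library gave 0 to 9. Over all genes, 398 called became 197 with upper-quartile scaling, 2378 without a filter, 1394 with DESeq2, 0 with limma on log2 FPKM (1 or 0.1 added; 3874 and 3887 at an unadjusted p under 0.05), 1723 without both libraries numbered 2, 166 in the libraries labelled female, 609 with labelled sex as a term, 0 with a length offset (3589 unadjusted), and 0 to 1091 when 1 library was left out. The share of calls that were lower, 75.6%, was 60.4% with upper-quartile scaling, 59.2% with DESeq2, 60.2% with the replicate block and 49.5% without a filter (1200 higher and 1178 lower). The cause of these shifts was not tested. With replicate number as a block 648 genes were called and 0 subunit genes, with Grin2d at 0.43 (adjusted p = 0.0530) and Grin2c at -0.32 (adjusted p = 0.0667). Deviations of same-numbered libraries from their group means correlated at 0.19, 0.35 and -0.24. With so few libraries per group these values cannot decide whether the numbers pair the samples, and the labels do not say. The canonical transcript lengths were chosen after seeing the data, and with them the MeHg minus Control differences of the shares and ratios moved by less than 1 SD. The shares and ratios themselves moved further: in controls the summed GluN2 genes over Grin1 went from 3.06 ± 0.0582 to 1.31, Grin2b over Grin2a from 0.305 ± 0.00559 to 0.259, Grin2c over Grin2a from 22.2 ± 3.54 to 17.3 and the Grin2d share from 3.09 ± 0.36% to 3.93%.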
